A study of Mus musculus with 6 samples.

Results

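A group of 10 genes, called members here, was followed in dorsal skin of wild-type and tight-skin (Tsk) mice: the adipogenic transcription factors Pparg, Cebpa, Cebpb, Cebpd, Ebf1, Ebf2 and Zfp423, and the fatty acid uptake genes Fabp4, Cd36 and Lpl. They were chosen by gene name for their known roles, with earlier results of these data known. All 10 were found among the 55291 genes of the deposited count table and passed the expression filter. The wild-type group was C57BL/6 and the Tsk group B6.Cg-Fbn1Tsk/J with the genotype written as Fbn1+/-, 3 samples each, of age day 40. No treatment is given for either group, and since nothing ties each library to its own mouse, the p-values speak of library-to-library spread, which may be technical. The strain name points to the Tsk allele, which is known as an internal duplication in Fbn1, the fibrillin 1 gene, whereas the written genotype reads as a lost copy.

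Fat cells of the skin form when mesenchymal progenitors are committed to the lineage and then differentiate. EBF1, EBF2 and ZFP423 act in committed progenitors, C/EBPβ and C/EBPδ are switched on early in differentiation, and PPARγ and C/EBPα then sustain each other and the genes of the mature fat cell. Among those genes, lipoprotein lipase (Lpl) frees fatty acids from circulating lipoproteins, CD36 takes them up at the cell surface and FABP4 carries them inside the cell. The dermis of mouse back skin lies on a layer of white fat, the dermal white adipose tissue, whose thickness is known to vary with the hair cycle.

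Library totals ran from 17561271 to 19219622 counts. Fbn1 was higher in all 3 Tsk libraries than in all 3 wild-type libraries, at 1758 ± 301 against 302 ± 45.6 CPM (SD, n = 3 each). CPM here are counts scaled to library totals corrected by TMM, which allows for differences in composition. The epidermal keratin Krt5 stood at 1115 to 2733 CPM over the 6 libraries and Krt14 at 447 to 1307 CPM, so the libraries held epidermis, and 14 skeletal muscle markers took 14.5 to 24.4% of counts. Such bulk libraries cannot tell more cells of a type from more RNA per cell. Tsk replicate 5 stood apart in fat cell genes, with 0.353% of its counts on the 10 members against 0.0909 to 0.112% in the other Tsk libraries and 0.0516 to 0.0655% in wild type. Fold changes of members that rest on this library are given with and without it.

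Of the 10 members, 3 rose in Tsk skin: Ebf1, Ebf2 and Cebpa (edgeR quasi-likelihood test, Benjamini-Hochberg adjusted p under 0.05 over 19971 genes). Across all genes tested 2.72% were called higher in this way and 0.696% lower. No member fell, also at an unadjusted edgeR p under 0.05 and with DESeq2 or limma-voom. A further 4 members, Pparg, Fabp4, Cd36 and Zfp423, had an unadjusted p under 0.05 with higher Tsk means, and Lpl, Cebpb and Cebpd did not. An unadjusted p under 0.05 with a higher Tsk level was found for 12.1% of all genes tested. In 6 members every Tsk library lay above every wild-type library, and 14.1% of all genes tested were separated in that direction (10.6% in the other). The log2 fold change was at least 1 in 7 members, against 4.6% of all genes tested (4 members against 4.8% without Tsk replicate 5), and above 0 in 9 members, against 47% of them. The median log2 fold change of the 10 members was 1.41, and that of all genes tested was -0.03. Without Tsk replicate 5 the members' median was 0.71, with Ebf1 and Cebpa called, and 1.66% of all genes tested were called higher. Without wild-type replicate 3 edgeR called none of the 10, the lowest adjusted p being 0.0545 for Ebf1. Across all genes tested that fit called 0.227% higher at an adjusted p under 0.05.

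**Figure D1:**
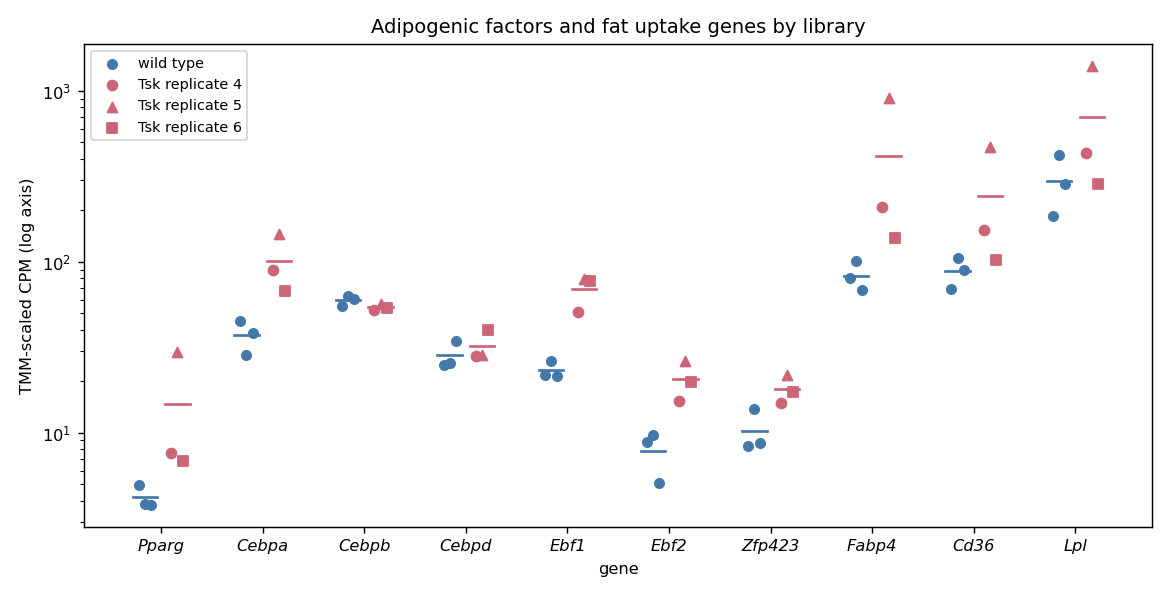
TMM-scaled CPM of the 10 members in each library on a log axis, with wild type in blue, Tsk in red and a line at each group mean (n = 3 each). Tsk replicate 5, the triangle, reaches 907 CPM for Fabp4 and 1399 CPM for Lpl, far above the other Tsk libraries, while the Ebf1 values of all 3 Tsk libraries lie well above wild type.

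Promoter sequences are shown for 5 of the factors whose levels are compared next: Ebf1 and Cebpa, which rose, and Pparg, Zfp423 and Cebpb, which did not pass. RefSeq windows of the GRCm38.p6 build were found for 6 of the 10 members, with 10 start sites among them. Only the 250 bases before a start are used, and 7 of these windows held no annotated exon base of their gene. Capitals mark matches, on either strand, to the C/EBP motif TTGCNNAA, the EBF motif CCCNNGGG and the TATA box TATAAA. No 2 of these matches overlap in the windows printed.
Ebf1, inner start, chr11:44619978-44620227, plus strand: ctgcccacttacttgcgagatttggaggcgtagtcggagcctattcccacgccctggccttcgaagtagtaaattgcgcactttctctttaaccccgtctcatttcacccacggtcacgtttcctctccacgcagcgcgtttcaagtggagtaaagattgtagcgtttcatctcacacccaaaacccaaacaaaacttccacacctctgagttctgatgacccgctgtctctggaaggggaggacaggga
Pparg, internal start, chr6:115421816-115422065, plus strand: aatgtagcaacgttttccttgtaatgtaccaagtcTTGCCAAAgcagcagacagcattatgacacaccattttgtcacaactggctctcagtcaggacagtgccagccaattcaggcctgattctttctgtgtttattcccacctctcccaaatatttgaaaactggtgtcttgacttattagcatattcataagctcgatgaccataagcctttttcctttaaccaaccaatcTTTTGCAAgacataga
Cebpa, chr7:35119043-35119292, plus strand: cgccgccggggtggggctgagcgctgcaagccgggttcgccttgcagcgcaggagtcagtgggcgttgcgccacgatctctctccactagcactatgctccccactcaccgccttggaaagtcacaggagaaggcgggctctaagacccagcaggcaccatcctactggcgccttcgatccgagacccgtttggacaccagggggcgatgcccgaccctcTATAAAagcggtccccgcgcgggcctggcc
Zfp423, outer start, chr8:87959596-87959845, minus strand: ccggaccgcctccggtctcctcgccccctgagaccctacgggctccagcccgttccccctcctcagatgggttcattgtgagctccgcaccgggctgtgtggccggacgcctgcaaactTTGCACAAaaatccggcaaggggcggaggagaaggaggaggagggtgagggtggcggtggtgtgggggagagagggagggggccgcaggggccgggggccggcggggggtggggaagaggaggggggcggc
Zfp423, inner start, chr8:87804440-87804689, minus strand: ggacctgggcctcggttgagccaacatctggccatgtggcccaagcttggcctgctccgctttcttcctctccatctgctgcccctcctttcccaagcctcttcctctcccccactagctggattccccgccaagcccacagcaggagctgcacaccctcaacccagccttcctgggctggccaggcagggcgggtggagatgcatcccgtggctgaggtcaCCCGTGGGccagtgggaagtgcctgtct
Cebpb, chr2:167688665-167688914, plus strand: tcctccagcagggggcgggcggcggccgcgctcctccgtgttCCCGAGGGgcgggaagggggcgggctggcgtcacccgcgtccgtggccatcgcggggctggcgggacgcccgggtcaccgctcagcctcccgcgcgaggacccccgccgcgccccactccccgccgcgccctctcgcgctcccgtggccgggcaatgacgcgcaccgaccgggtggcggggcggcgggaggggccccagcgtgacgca
The window before the internal Pparg start held 2 C/EBP matches, at -215 to -208 and at -16 to -9 counted from the start. The outer Zfp423 window held 1, at -131 to -124, and 9.57% of the 32817 promoter windows held at least 1. No C/EBP match was found in the inner Zfp423 window, in either window of the other 2 Pparg starts, or in the Ebf1, Cebpa and Cebpb windows. An EBF match lay at -208 to -201 in the Cebpb window and at -28 to -21 in the inner Zfp423 window, where 11.8% of all windows held one. The Ebf1 window held none of these motifs. The Cebpa window held a TATA box at -30 to -25, against 12.4% of windows. Its GC content was 66.4%, that of the Cebpb window 81.6% and that of the Pparg window 40.8%, with a median of 52.4% over all windows. The counts are summed over a whole gene and do not show which start was used, and a match is a description of letters only.

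Ebf1, an early B-cell factor that also acts in fat progenitors, was the member with the smallest p. Its gene runs on chromosome 11 from 44617317 to 45008091 on the plus strand (mm10). Its levels were 21.7, 26.3 and 21.6 CPM in wild-type replicates 1 to 3 and 50.7, 79.4 and 77.2 CPM in Tsk replicates 4 to 6. Every Tsk library stood well above the highest wild-type library. The log2 fold change was 1.58 ± 0.19 (SE, edgeR adjusted p = 0.00756), and it was 1.46 ± 0.20 without Tsk replicate 5 (edgeR adjusted p = 0.0170). Across the 6 fits that left out 1 library Ebf1 passed in 5, and without wild-type replicate 3 it stood at 1.54 (edgeR adjusted p = 0.0545). B cells are known to express Ebf1, and their markers were close to absent: the 5 B cell markers summed to 2.26 to 2.85 CPM in wild type and 1.88 to 2.71 CPM in Tsk.

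Ebf2, which marks fat progenitors and beige fat cells, lies on chromosome 14 from 67233292 to 67430918 on the plus strand. Its levels were 8.78, 9.64 and 5.08 CPM in wild type and 15.3, 26.4 and 19.9 CPM in Tsk, with no overlap. It rose by 1.39 ± 0.27 on the log2 scale (SE, edgeR adjusted p = 0.0328). When single libraries were dropped Ebf2 passed in 2 of 6 fits, and it stood at 1.17 both without wild-type replicate 3 (edgeR adjusted p = 0.0960) and without Tsk replicate 5 (edgeR adjusted p = 0.0753). It stood at 1.57 without wild-type replicate 2 (edgeR adjusted p = 0.0518) and at 1.41 without Tsk replicate 6 (edgeR adjusted p = 0.0754). Its span is crossed by 5 genes on the other strand, of which the most abundant averaged 14.3 counts a library.

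Zfp423, a zinc finger factor of preadipocyte commitment, runs on chromosome 8 from 87661810 to 87959595, minus strand. It stood at 8.33, 13.8 and 8.74 CPM in wild type and at 14.9, 21.7 and 17.2 CPM in Tsk. The groups were separated by a narrow gap, since wild-type replicate 2 nearly reached Tsk replicate 4. Its log2 fold change was 0.80 ± 0.23 (SE, 95% interval 0.29 to 1.32), which did not pass (edgeR adjusted p = 0.0923). Zfp423 passed in 7 of the 17 alternative analyses, among them DESeq2 and the fit without wild-type replicate 2. That fit was the 1 of the 6 with a library left out in which it passed. Zfp423 stood at 0.64 without Tsk replicate 5 (edgeR adjusted p = 0.230) and at 0.71 without wild-type replicate 3 (edgeR adjusted p = 0.270).

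Cebpb and Cebpd, the early C/EBP factors, did not pass, and their fold changes were the closest to 0 among the members. Cebpb lies on chromosome 2 from 167688915 to 167690418 and Cebpd on chromosome 16 from 15887286 to 15891031, both on the plus strand. Cebpb stood at 54.9, 62.7 and 60.5 CPM in wild type and at 52.4, 56.4 and 53.3 CPM in Tsk. Cebpd stood at 24.8, 25.6 and 34.6 CPM in wild type and at 28.1, 28.5 and 39.8 CPM in Tsk. The groups overlapped for both genes. The log2 fold change of Cebpb was -0.14 ± 0.11 (SE, 95% interval -0.39 to 0.12, edgeR adjusted p = 0.555). Scaling by library totals alone turned it to 0.15 and moved the median of all genes to 0.25. Cebpd stood at 0.18 ± 0.19 (SE, 95% interval -0.24 to 0.60, edgeR adjusted p = 0.643) and at -0.002 without Tsk replicate 6. Both intervals lie below a 2-fold rise. Tmem189 overlaps Cebpb and Spidr overlaps Cebpd on the other strand, with 471 and 147 counts a library on average, and whether strand was used in counting is not given in the sources used here.

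Cebpa, which keeps fat cells differentiated and insulin-responsive, lies on chromosome 7 from 35119293 to 35121928 on the plus strand. Its levels were 44.9, 28.7 and 38.4 CPM in wild type and 89.1, 145 and 67.1 CPM in Tsk. The lowest Tsk library lay above the highest wild-type library. Cebpa rose by 1.43 ± 0.29 on the log2 scale (SE, edgeR adjusted p = 0.0366), and by 1.06 ± 0.21 without Tsk replicate 5 (edgeR adjusted p = 0.0495). With 1 library left out it passed in 2 of 6 fits. It stood at 1.61, 1.28 and 1.45 without wild-type replicates 1, 2 and 3 (edgeR adjusted p = 0.0575, 0.111 and 0.141) and at 1.51 without Tsk replicate 4 (edgeR adjusted p = 0.0599).

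Pparg, the nuclear receptor on which fat cell formation depends, lies on chromosome 6 from 115360951 to 115490399 on the plus strand. Its counts were 89, 59 and 61 in wild type and 146, 638 and 146 in Tsk. As CPM these were 4.94, 3.82 and 3.78 against 7.55, 29.8 and 6.86. All Tsk libraries lay above wild type, but Tsk replicate 5 exceeded the mean of the other Tsk libraries 4.13-fold. The log2 fold change of 1.81 ± 0.56 (SE, 95% interval 0.53 to 3.10) did not pass (edgeR adjusted p = 0.122). It was 0.78 ± 0.22 without Tsk replicate 5 (edgeR adjusted p = 0.125). DESeq2 called it at 1.83 (DESeq2 adjusted p = 0.00553), the 1 call among its 17 alternatives.

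**Figure D2:**
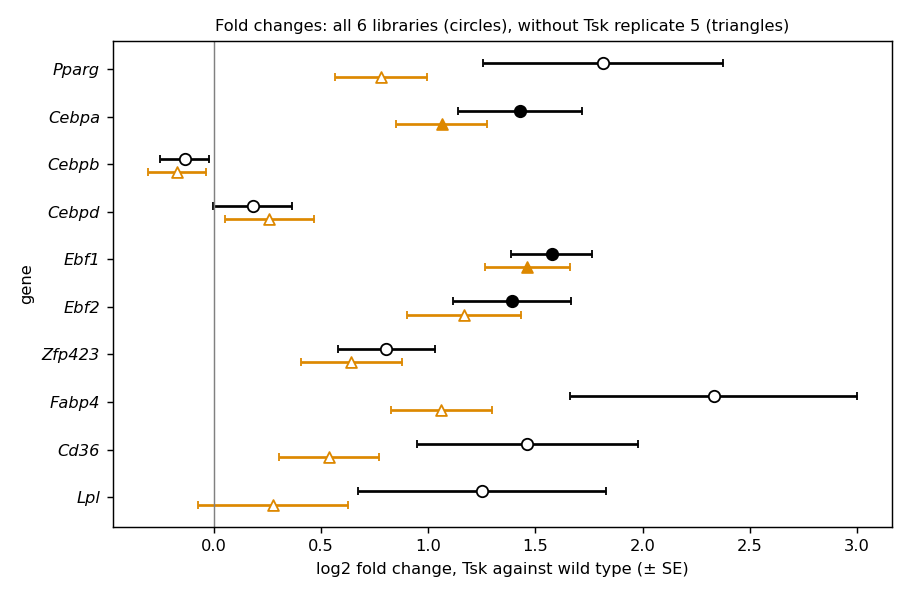
Log2 fold changes of Tsk against wild type with their SE from edgeR, over all 6 libraries (circles) and without Tsk replicate 5 (triangles), filled where the adjusted p was under 0.05. Pparg, Fabp4, Cd36 and Lpl move from 1.81, 2.33, 1.46 and 1.25 to 0.78, 1.06, 0.54 and 0.27, while Ebf1 moves from 1.58 to 1.46.

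The 3 fatty acid uptake genes did not pass, and each was highest in Tsk replicate 5. Fabp4, on chromosome 3 from 10204088 to 10208576, minus strand, stood at 80.3, 101 and 68.5 CPM in wild type and at 210, 907 and 138 CPM in Tsk. Its groups did not overlap, and the Tsk libraries differed 6.59-fold among themselves. On the log2 scale Fabp4 differed by 2.33 ± 0.67 (SE, edgeR adjusted p = 0.106), and 1.06 ± 0.23 without Tsk replicate 5 (edgeR adjusted p = 0.0683). It was called in 2 of its 17 alternatives, both on the deposited CPM values.

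Cd36, on chromosome 5 from 17781690 to 17888801, minus strand, stood at 69.4, 105 and 89.1 CPM in wild type and at 153, 471 and 103 CPM in Tsk. Tsk replicate 6 lay within the wild-type range, and the other Tsk libraries lay above it. The log2 difference of Cd36 was 1.46 ± 0.51 (SE, 95% interval 0.28 to 2.64, edgeR adjusted p = 0.164) and 0.54 ± 0.23 without Tsk replicate 5 (edgeR adjusted p = 0.297).

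Lpl, on chromosome 8 from 68880491 to 68907448 on the plus strand, stood at 185, 420 and 284 CPM in wild type and at 434, 1399 and 284 CPM in Tsk. It was the member with the widest wild-type spread, at 2.27-fold from the lowest to the highest library, and Tsk replicate 6 fell in the middle of wild type. The log2 difference of Lpl was 1.25 ± 0.58 (SE, 95% interval -0.08 to 2.58, edgeR adjusted p = 0.277) and 0.27 ± 0.35 without Tsk replicate 5 (edgeR adjusted p = 0.745). Muscle fibres also make lipoprotein lipase, and the 14 skeletal muscle markers took 16.8, 24.4 and 23.2% of counts in wild-type replicates 1, 2 and 3. Both they and Lpl were lowest in wild-type replicate 1 and highest in replicate 2. In Tsk they took 16.6, 15.6 and 14.5%. The part of muscle in the Lpl values was not tested.

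**Figure D3:**
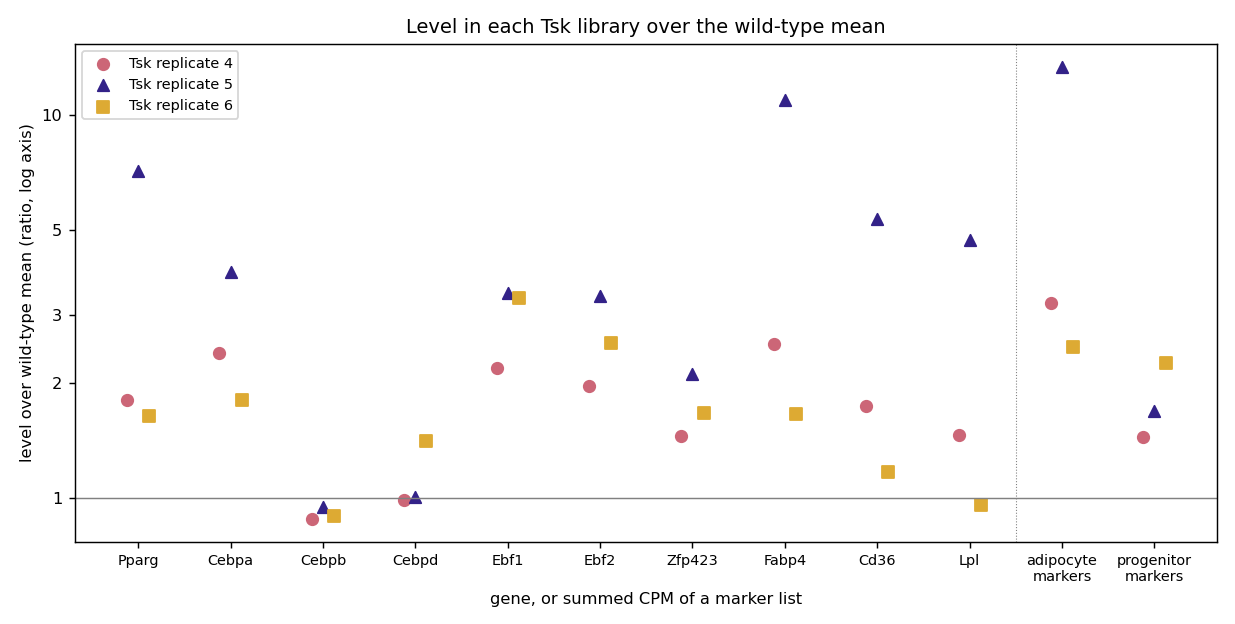
Level of each member in each Tsk library divided by the wild-type mean, with the summed CPM of 8 adipocyte markers and of 11 adipocyte progenitor markers treated in the same way on the right (ratio, log axis). In Tsk replicate 5 the adipocyte marker sum reaches 13.4, Fabp4 10.9 and Pparg 7.12, whereas Ebf1 stands at 3.43 there and 3.33 in Tsk replicate 6.

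Within the Tsk group the members thus varied in unlike ways. The coefficient of variation over the 3 Tsk libraries was 102% for Fabp4, 88.5% for Pparg, 85.7% for Lpl and 82.5% for Cd36. It was 40.1% for Cebpa, 27.1% for Ebf2, 23.1% for Ebf1, 20.8% for Cebpd, 19.2% for Zfp423 and 3.93% for Cebpb. In wild type it ran from 6.76% for Cebpb to 39.9% for Lpl. Tsk replicate 5 exceeded the mean of the other Tsk libraries 5.22-fold for Fabp4, 3.90-fold for Lpl and 3.68-fold for Cd36, but 1.24-fold for Ebf1 and 1.35-fold for Zfp423. The 8 adipocyte markers, summed, stood at 98.2 to 136 CPM in wild type and at 294 to 1581 CPM in Tsk. They reached 3.24, 13.4 and 2.48 times the wild-type mean in Tsk replicates 4, 5 and 6, and the part of fat cell content in the members' values was not tested.

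Levels were compared between genes per kilobase of the longest coding transcript in GENCODE M21. In wild type Fabp4 was highest, at 92.7 ± 18.1 CPM per kb, followed by Lpl at 72.0 ± 28.8, and their libraries overlapped. Cebpb followed at 39.5 ± 2.67, Cd36 at 25.8 ± 5.24, Cebpa at 14.2 ± 3.12, Cebpd at 7.57 ± 1.45 and Ebf1 at 3.87 ± 0.448 CPM per kb, each clear of its neighbours. Zfp423, Pparg and Ebf2 were lowest, at 2.10 ± 0.618, 1.97 ± 0.311 and 1.51 ± 0.465 CPM per kb, and neighbours among them overlapped. In Tsk the order was Fabp4, Lpl, Cd36, Cebpa, Cebpb, Ebf1, Cebpd, Pparg, Ebf2 and Zfp423. There Cebpa stood at 38.3 ± 15.3 and Cebpb at 35.9 ± 1.41 CPM per kb, and the only neighbours that did not overlap were Cebpb and Ebf1 (all SD, n = 3).

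Genes whose pattern over the 6 libraries came closest to Pparg and to Cebpa were sought by the root-mean-square difference of log2 CPM after centring each gene on its own mean, among 15318 genes. For Pparg these were Ppp1r3b (0.17), Slc25a10 (0.17), Tmem120a (0.18), Pygl (0.20) and Fgf10 (0.20). For Cebpa they were Rasd1 (0.13), Mfng (0.14), Fah (0.17), Abhd15 (0.17) and Wfdc21 (0.18). Of these 10 genes only Wfdc21 was called (1.81 ± 0.26 SE, edgeR adjusted p = 0.0134). Among the members, Cd36 lay nearest to Pparg at 0.33 (rank 45 of the 15318), then Fabp4 at 0.37 and Cebpa at 0.39, and Cebpb lay farthest at 1.00. All 10 of the nearest genes named above were highest in Tsk replicate 5, and distances without that library were not computed.

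Genes around the members in the adipogenic pathway were then counted in the same fit, in lists written with earlier results of these data known. Over all genes tested DESeq2 called 5.56% higher, and 12.1% were higher at an unadjusted edgeR p under 0.05. Of 18 activators of adipogenesis, Tle3, a corepressor that works with PPARγ, was the 1 that rose, by 0.55 ± 0.11 on the log2 scale, and none fell. Tle3 stood at 43.4, 40.4 and 40.2 CPM in wild type and at 56.5, 61.3 and 63.5 CPM in Tsk (edgeR adjusted p = 0.0349). Of 16 inhibitors, 2 rose and none fell. Klf2, a repressor of Pparg, stood at 25.8, 30.5 and 26.5 CPM in wild type and at 46.2, 49.5 and 56.7 CPM in Tsk, a log2 fold change of 0.88 ± 0.13 (edgeR adjusted p = 0.0136). Zfp521, which opposes Zfp423 and EBF1, rose by 0.93 ± 0.20 (edgeR adjusted p = 0.0428), from 17.3 ± 3.42 to 33.1 ± 7.32 CPM (SD, n = 3 each). Activators and inhibitors had median log2 fold changes of 0.14 and 0.24, and of -0.01 and 0.19 without Tsk replicate 5. With 1 library left out, Klf2 passed in 5 of 6 fits, Zfp521 in 2 and Tle3 in 1.

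Of 10 tested paralogs of the members, the lipoprotein receptor Scarb1, of the same family as Cd36, was the 1 that rose. It went from 26.5 ± 1.52 to 52.0 ± 5.11 CPM (SD, n = 3 each) without overlap, a log2 fold change of 0.97 ± 0.12 (edgeR adjusted p = 0.00801) that passed in 5 of 6 fits with 1 library left out. The paralogs had a median of 0.13, and -0.02 without Tsk replicate 5, and none fell. Of 10 tested partners of lipoprotein lipase none was called by edgeR or limma-voom. DESeq2 called 2 higher, and 3 were higher and 1 lower at an unadjusted edgeR p under 0.05. Their most abundant members, the lipoprotein receptor Lrp1 and apolipoprotein E (Apoe), stood at 0.98 ± 0.23 (edgeR adjusted p = 0.0549) and 0.58 ± 0.31 (edgeR adjusted p = 0.337). Gpihbp1, which holds lipoprotein lipase on capillaries and was picked after its values were seen, stood at 4.33, 8.28 and 6.70 CPM in wild type and at 12.3, 19.3 and 6.25 CPM in Tsk, with overlap. Angptl4 was also among the 3 higher at an unadjusted p (1.23 ± 0.35, edgeR adjusted p = 0.0992). Vldlr was the 1 lower (-0.68 ± 0.25, edgeR adjusted p = 0.180).

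Among 15 genes of fatty acid uptake and activation none rose by edgeR or limma-voom, and DESeq2 called 1 higher and 1 lower. At an unadjusted edgeR p under 0.05, 3 were higher and 2 lower, with Acsl3 at -0.42 ± 0.14 (edgeR adjusted p = 0.150). Acsl6, an acyl-CoA synthetase, fell by 1.29 ± 0.19 on the log2 scale (edgeR adjusted p = 0.0134). It went from 11.7 ± 1.67 to 4.78 ± 0.751 CPM (SD, n = 3 each) without overlap, and passed in 5 of 6 fits with 1 library left out. The list's median was 0.36, and -0.05 without Tsk replicate 5.

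Of 17 tested genes listed as targets of PPARγ, the leptin gene Lep and the complement factor D gene Cfd rose and none fell. The list's median log2 fold change was 2.44, with 16 of 17 above 0. Whether PPARγ raises or lowers each of these genes was not tested. In 10 of the 17 every Tsk library lay above every wild-type library, against 14.1% of all genes tested. Lep stood at 1.33, 2.91 and 2.36 CPM in wild type and at 13.1, 50.4 and 10.8 CPM in Tsk, a log2 fold change of 3.50 ± 0.69 (edgeR adjusted p = 0.0414). Cfd stood at 56.4, 56.7 and 38.2 CPM in wild type and at 169, 586 and 138 CPM in Tsk (2.56 ± 0.54, edgeR adjusted p = 0.0444). Both were lower in Tsk replicates 4 and 6 than in replicate 5, as Pparg was. Without Tsk replicate 5 Lep stood at 2.45 and Cfd at 1.60 (edgeR adjusted p = 0.0131 and 0.0156). In that fit the median was 0.98 and 6 of the 17 were called higher, against 1.66% of all genes tested. The 8 adipocyte markers, 6 of which are also on the target list, had a median of 2.80. Without Tsk replicate 5 their median was 1.56, with 6 called higher. When single libraries were dropped, Lep and Cfd each passed in 3 of 6 fits.

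**Figure D4:**
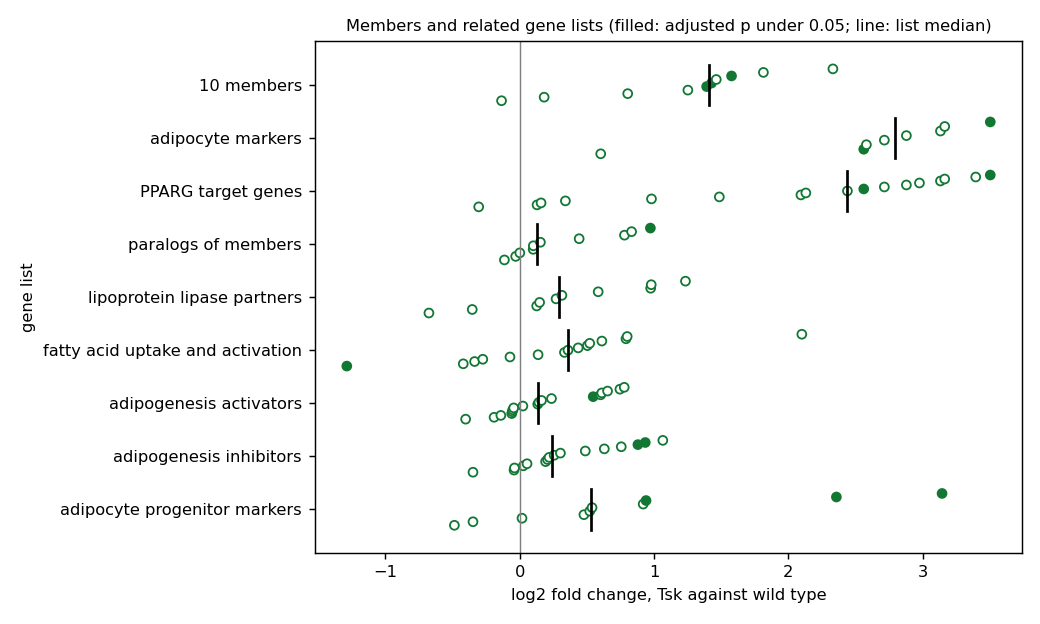
Log2 fold change of Tsk against wild type for each tested gene of the 10 members and 8 related lists, filled where the edgeR adjusted p was under 0.05, with a line at each list's median. Adipocyte markers and the genes listed as PPARγ targets have medians of 2.80 and 2.44, above the members at 1.41, while activators and inhibitors of adipogenesis lie near 0.14 and 0.24.

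Of 10 tested markers of adipocyte progenitors edgeR called 3 higher and none lower, with a median of 0.53 and 8 above 0. At an unadjusted edgeR p under 0.05, 6 were higher and 1 was lower, Cd24a at -0.49 ± 0.21. DESeq2 called 6 higher and none lower. Dpp4, a surface peptidase of fascial progenitors, stood at 6.83, 8.67 and 7.13 CPM in wild type and at 29.3, 38.4 and 48.1 CPM in Tsk (2.36 ± 0.20, edgeR adjusted p = 0.00278). Pi16 stood at 13.4, 26.3 and 14.8 CPM in wild type and at 90.2, 131 and 260 CPM in Tsk (3.14 ± 0.43, edgeR adjusted p = 0.0134). Cd34 rose by 0.94 ± 0.16 (edgeR adjusted p = 0.0194). Unlike the fat uptake genes, Dpp4, Pi16 and Cd34 were highest in Tsk replicate 6, and Ebf1 was nearly level between Tsk replicates 5 and 6. Ebf2 and Zfp423 were highest in Tsk replicate 5, at 26.4 and 21.7 CPM, against 19.9 and 17.2 CPM in Tsk replicate 6. The 11 progenitor markers summed to 293 to 396 CPM in wild type and to 515 to 800 CPM in Tsk. Dpp4 passed in all 6 fits with 1 library left out, Pi16 in 4 and Cd34 in 3. The part of progenitor content in the Ebf1 and Ebf2 values was not tested.

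Other cells of skin also express some members, and their markers were summed in the same way. By edgeR and limma-voom, no marker of macrophages, sebocytes, pericytes, neutrophils, B cells or skeletal muscle was called, while DESeq2 called 3, 1, 2, 0 and 0 higher in the first 5 and 1 higher and 11 lower in muscle. At an unadjusted edgeR p under 0.05 these counts were 6, 1, 4, 0 and 0 higher, with 1 neutrophil marker lower, and 1 higher and 9 lower in muscle. Across all genes tested DESeq2 called 5.56% higher and 411 of 20414 lower, and 12.1% were higher at an unadjusted edgeR p under 0.05. The share of all genes lower at that unadjusted p was not computed. Capillary endothelium is known to express Cd36 and Fabp4. Its 8 markers summed to 139 to 186 CPM in wild type and 190 to 344 CPM in Tsk, with Tek the 1 that rose (1.29 ± 0.21, edgeR adjusted p = 0.0188). All 8 were higher at an unadjusted edgeR p under 0.05, and DESeq2 called 3 higher. Macrophages express Cd36 and Lpl. Their 8 markers summed to 260 to 341 CPM in wild type and 383 to 986 CPM in Tsk, highest in Tsk replicate 6, where Cd36 and Lpl were lowest within Tsk. Among macrophage genes Lyz2 stood at 0.84 ± 0.34 (edgeR adjusted p = 0.219) and Mrc1 at 1.16 ± 0.35 (edgeR adjusted p = 0.116). Sebaceous gland cells express Pparg. Their 8 markers summed to 48.0 to 163 CPM in wild type and 167 to 237 CPM in Tsk, with Krt79 at 0.62 ± 0.42 (edgeR adjusted p = 0.460) and Mgst1 at 1.41 ± 0.40 (edgeR adjusted p = 0.0987). The 6 pericyte markers overlapped between groups at 359 to 597 and 428 to 645 CPM, with Abcc9 at -0.46 ± 0.23 and Rgs5 at 0.54 ± 0.39 (edgeR adjusted p = 0.313 and 0.495). The 6 neutrophil markers summed to at most 6.22 CPM in any library, with Ly6g at 0 counts in all, Csf3r at -0.69 ± 0.47 and S100a9 at -2.21 ± 0.57 (edgeR adjusted p = 0.471 and 0.0722). Of B cell markers 1 of 5 was tested, Ms4a1 at -0.34 ± 0.24 (edgeR adjusted p = 0.493). Of the 14 skeletal muscle markers 12 lay below 0, with Ttn at -0.74 ± 0.41 and Myh4 at -1.09 ± 0.36 (edgeR adjusted p = 0.354 and 0.136). The part of these cells in the members' values was not tested.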

How the data were processed

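RNA sequencing counts of 6 dorsal skin samples, 3 wild type and 3 Tsk, were used. Per the labels' protocols, ribosomal RNA was depleted and libraries were made with a stranded dUTP kit. Reads went through bcl2fastq 2.19.1.403, STAR and Partek 7.0 with mm10, per the submitters' processing notes. The sources used here name neither gene models nor a counting rule. Estimated counts (expected counts) as deposited were 34.8 to 37.3% fractional in each library and were rounded. The deposited CPM values and the deposited TMM-normalised signal, to which the authors added 0.0001 per the file names, served in alternatives only. The deposited TPM were left out, since they scale with whole gene span. Symbol, span and strand matched GENCODE M21 for all 10 members.

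Counts were fitted in edgeR 4.0.16 (R 4.3.3) with TMM factors, the default filter (minimum count 10, minimum total 15), robust quasi-likelihood F-tests and Benjamini-Hochberg adjustment over 19971 genes. The SE is the log2 fold change divided by the square root of F, and levels are mean ± SD. The steps were tested on simulated counts. Depth was 17561271 to 19219622 counts, and without molecular identifiers the precision that depth gives covers counting error only. The SE and p-values also take in the spread between libraries of a group. No libraries were duplicates (lowest chi-square over its degrees of freedom within a group, 8.02). Named genes are the members, up to 4 called genes of each list or its 2 most abundant ones, and the 5 nearest patterns to Pparg and Cebpa (log2 of CPM + 0.5). Members and lists were chosen with earlier results of these data known. Alternatives were other scalings, filters, DESeq2 1.42.0, limma-voom and limma-trend (limma 3.58.1), and leaving out each library.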

Additional observations from a re-analysis of the deposited data

How the results depend on the processing

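No paired analysis was possible because the groups share no replicate numbers (1 to 3 against 4 to 6). The members called higher numbered 3, and 5 with DESeq2 and with limma-trend on the deposited CPM + 0.5 or + 0.1, which called 5.56, 8.94 and 8.82% of all genes tested higher, against 2.72%. With 1 library left out the number of members ran from 0 (without wild-type replicate 3) to 2. In those fits the share of all genes tested called higher ran from 0.227% (without wild-type replicate 3) to 3.71% (without wild-type replicate 1). None was called lower in any of the 17 alternatives, and the members' median ran from 0.71 (without Tsk replicate 5) to 1.58 in those 6 fits. Of 170 member values under the alternatives, 145 kept direction and call, 10 lost and 10 gained the call and 5 turned. Cebpb turned to 0.15 with library totals alone, 0.14 on deposited CPM + 0.5 and + 0.1 and 0.0132 on the deposited TMM-normalised values. Cebpd turned to -0.00203 without Tsk replicate 6, the lowest of its leave-one-out values, of which the highest was 0.36. The cause was not tested beyond the shift of all genes' median to 0.25 with library totals. Genes of the other lists called higher numbered 10, and 35 with library totals or DESeq2, 44 on deposited CPM with either pseudocount and 28 on deposited TMM-normalised values. Those called lower numbered 1, and 2 with muscle markers left out of the table, 6 without a filter and 12 with DESeq2. With 1 library left out these ran from 1 to 14 higher and 0 to 14 lower. Over all genes 544 were called higher and 139 lower, from 47 to 1786 and from 16 to 618 under the alternatives. These counts over other lists and all genes were added after seeing the data. Wild-type counts were lowest for Pparg among the members, at 59 to 89.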
